A study of Homo sapiens with 2 samples.

Results

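FGFR1, its fusion partner FGFR1OP2 and 7 myeloid growth factor receptors were followed in KG1, an established cell line from a human acute myeloid leukaemia that resembles immature progenitors. The 9 genes are FGFR1, FGFR1OP2, KIT, FLT3, CSF1R, CSF2RA, CSF2RB, CSF3R and EPOR, of 19775 genes named on the array. All probe sets that the platform annotation assigns to these symbols were taken, 30 of 54675. Of these, 29 belong to 1 gene. The other one, 215054_at, is assigned to both EPOR and RGL3; its signal was 476 in siRNA-Tbet cells and 580 in siRNAc cells, and it was read as neither gene.

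Electroporation delivered 1.98 µg of siRNA, either directed at T-bet (siRNA-Tbet) or a control (siRNAc). Both cultures rested for 5 h and then received IL-18 at 10 ng/ml for 12 h, so IL-18 stimulation is shared by both. Each group holds 1 array, with no replicate error, and no difference below has a p-value. Signals are MAS5 intensities in arbitrary units, which depend on the probes and are compared only within a probe set. The arrays read RNA of whole cultures, so fewer cells that express a gene and less RNA per cell cannot be told apart.

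Receptor tyrosine kinases such as FGFR1, KIT, FLT3 and CSF1R dimerise when they bind their ligand and phosphorylate each other, which recruits adaptors of the RAS, PI3K and phospholipase C pathways. The receptors of GM-CSF, G-CSF and erythropoietin have no kinase of their own and signal through bound JAK2 and STAT5 or STAT3. Together they control survival, proliferation and lineage choice of blood progenitors. In myeloid and lymphoid neoplasms with FGFR1 rearrangement, the kinase part of FGFR1 is joined to a partner protein that makes it dimerise without ligand. FGFR1OP2 is such a partner, and its fusion to FGFR1 has been described in the KG1 lineage.

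The silenced gene and the cell type were read first. TBX21, which encodes T-bet, gave a signal of 1839 in siRNA-Tbet cells and 3581 in siRNAc cells, so that 51.3% of the control signal was left. CD34, the surface antigen of haematopoietic progenitors, gave 17130 with siRNA-Tbet and 15839 with siRNAc. Of the 4 progenitor markers named on the array, PTPRC was also bright, with 21790 in siRNA-Tbet cells and 22778 in siRNAc cells. PROM1 (30.4 with siRNA-Tbet and 44.3 with siRNAc) was below the array medians. So was SPN on the probe set that stood for it (37.1 with siRNA-Tbet and 49.3 with siRNAc), though 4 other SPN probe sets exceeded them. CD33 was not read. CD14, a defining marker of mature monocytes, gave 4.54 with siRNA-Tbet and 6.34 with siRNAc, far below the array medians. Of 4 granulocyte markers only MPO, which encodes myeloperoxidase, exceeded the median signal of an array, with 210 in siRNA-Tbet cells and 127 in siRNAc cells; FCGR3B (79.2 with siRNA-Tbet and 78.8 with siRNAc), ELANE and CEACAM8 were below the array medians. Both mast cell and basophil markers named on the array were well above the medians. TPSB2, a tryptase read by an _x_at probe set, was 1.75-fold higher, with 1587 in siRNA-Tbet cells and 907 in siRNAc cells, outside the middle 95% of the 1000 probe sets closest in signal (-0.47 to 0.46, log2). CPA3, the mast cell carboxypeptidase, had 1888 with siRNA-Tbet and 2093 with siRNAc, and the part of either marker in the receptor values was not tested. The ratio of the 3′ to the 5′ control probe sets was 0.975 with siRNA-Tbet and 1.01 with siRNAc for GAPDH, and 1.2 with siRNA-Tbet and 1.22 with siRNAc for ACTB.

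No measured probe set of the 9 genes differed between the arrays by as much as that of TBX21, and the receptor signals were mostly alike. The median signals of the arrays were 144 with siRNA-Tbet and 146 with siRNAc. Values below the higher of these were raised to it as a floor, and a probe set counted as measured if it exceeded the floor on at least 1 array. This left 24 measured member probe sets from 8 of the 9 genes; 20 of them exceeded the floor on both arrays. KIT was the gene without a measured probe set. At a threshold of 1.5-fold, 1 member probe set was higher with siRNA-Tbet, against 2.87% of all 23471 measured probe sets with a gene name, and 1 was lower, against 3.23%. The members' own shares were 4.17% in each direction. Each share rests on 1 probe set, so 1 fewer would bring it to 0. The lower one, CSF1R, exceeded the floor only with siRNAc, so the filter fixed its direction. No member probe set (0 of 24) was 2-fold higher, against 0.324% of all measured probe sets, and 0 were 2-fold lower, against 0.332%.

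The median log2 ratio of siRNA-Tbet over siRNAc was 0.07 over the 24 measured member probe sets and -0.01 over all measured probe sets with a gene name. Log2 ratios ran from -0.59 at CSF1R to 0.68 at a probe set of CSF2RA. Of the 24, 16 were higher and 8 lower with siRNA-Tbet, which is 66.7% higher against 48.4% over all measured probe sets. Probe sets of 1 gene read transcripts of the same gene, so they are not independent of each other. Every one of the 24 lay inside the middle 95% of the 1000 measured probe sets closest to it in mean signal. For the 4 that exceeded the floor on 1 array only, the floor itself limits how far a ratio can stand out. The filter also fixed their direction, upwards for 243619_at (FGFR1OP2), 211286_x_at and 211287_x_at (CSF2RA) and downwards for CSF1R. These fixed directions are part of the 16 higher and 8 lower. The noise of a single ratio was taken from the 2 brightest probe sets of the same gene over all genes. This technical spread was 0.40 (SD, log2) in the dimmest of 10 signal bins, at a median signal of 231, and 0.12 in the brightest, at a median signal of 11337. It leaves out variation between cultures. By this measure, 15 of the 24 ratios lay within 1 technical SD of 0, 8 lay between 1 and 2, and 1 lay just past 2.

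**Figure D1:**
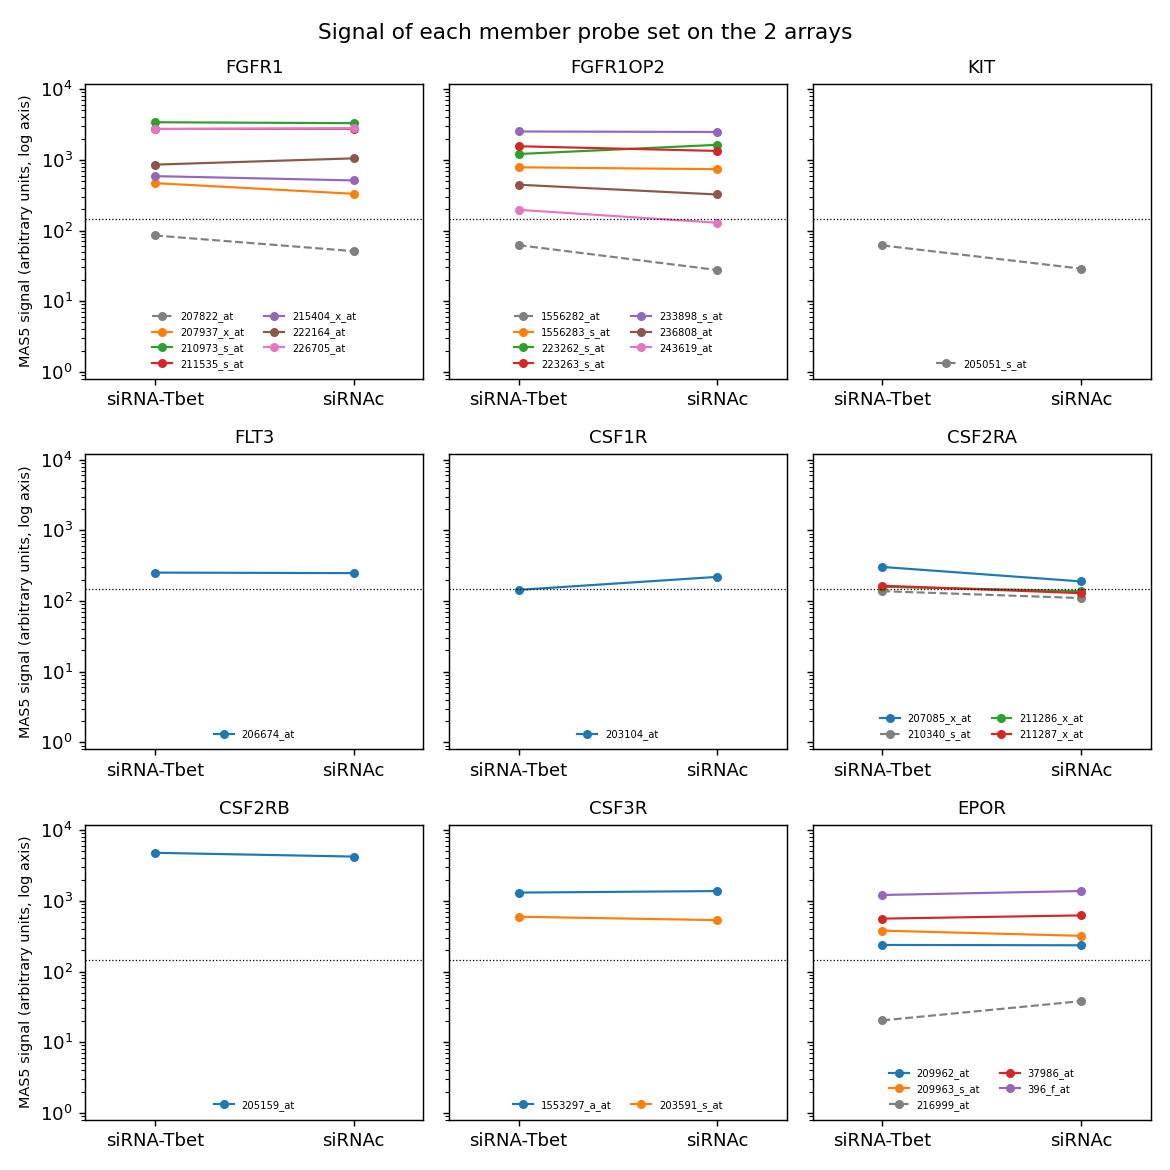
Signal of every member probe set (log axis, arbitrary units) with siRNA-Tbet (left) and siRNAc (right), 1 line per probe set and 1 panel per gene. The dotted line is the floor of 146, and dashed grey lines are probe sets below it on both arrays; most lines run nearly level, and the only measured line with a clear upward slope towards siRNAc at a low signal is CSF1R.

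FGFR1 encodes a receptor for fibroblast growth factors. Its 3 brightest probe sets gave almost the same signal on both arrays. Probe set 210973_s_at gave 3411 with siRNA-Tbet and 3308 with siRNAc, a log2 ratio of 0.04. Probe set 211535_s_at had 2737 with siRNA-Tbet and 2760 with siRNAc, a log2 ratio of -0.01. Probe set 226705_at had 2730 with siRNA-Tbet and 2807 with siRNAc, a log2 ratio of -0.04. All 3 differences are well inside the technical spread at these signals, which was 0.17 to 0.18. At this precision no difference in FGFR1 was detectable on its bright probe sets.

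The dimmer probe sets of FGFR1 scattered on both sides of 0. Probe set 222164_at gave 857 with siRNA-Tbet and 1051 with siRNAc, 18.5% lower. Probe set 215404_x_at had 589 with siRNA-Tbet and 512 with siRNAc, 15.0% higher. Probe set 207937_x_at had 469 with siRNA-Tbet and 331 with siRNAc, 41.7% higher, at 1.48 times the technical SD. Probe sets with the suffix _x_at hold probes that can match other transcripts. The seventh probe set of FGFR1, 207822_at, stayed below the floor with 85.1 in siRNA-Tbet cells and 51.1 in siRNAc cells, so no fold is given. Over the 6 measured probe sets, 3 were higher and 3 lower, with a median log2 ratio of 0.02.

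FGFR1OP2 encodes a coiled-coil protein. It also had 7 probe sets, of which 6 were measured, 5 of them higher and 1 lower with siRNA-Tbet, with a median log2 ratio of 0.15. The brightest, 233898_s_at, gave 2522 with siRNA-Tbet and 2483 with siRNAc, a difference of 1.58%. The 2 next in brightness pointed in opposite directions. Probe set 223263_s_at had 1559 with siRNA-Tbet and 1338 with siRNAc, 16.5% higher. Probe set 223262_s_at had 1210 with siRNA-Tbet and 1633 with siRNAc, 25.9% lower. That difference (log2 ratio -0.43) was the one member value just past 2 technical SD, at percentile 3.15 among probe sets of like signal.

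The remaining probe sets of FGFR1OP2 were dimmer. Probe set 1556283_s_at gave 785 with siRNA-Tbet and 738 with siRNAc. Probe set 236808_at had 445 with siRNA-Tbet and 324 with siRNAc, a log2 ratio of 0.46. Probe set 243619_at had 196 with siRNA-Tbet and 129 with siRNAc. Because the control value lies below the floor, the difference is given as at least 1.34-fold higher, and the filter fixed its direction. Probe set 1556282_at was below the floor on both arrays, with 62.1 in siRNA-Tbet cells and 27.6 in siRNAc cells. The gene thus gave no single direction, and its log2 ratios spanned 0.89 between the lowest and the highest probe set, against 0.80 for FGFR1. Transcripts of the unfused genes and of a fusion cannot be told apart, since the positions of the probes within the transcripts were not used here.

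KIT, FLT3 and CSF1R belong to the same class of receptor kinases, with 1 probe set each. KIT, the receptor of stem cell factor, gave 61.6 with siRNA-Tbet and 28.9 with siRNAc, both below the floor. FLT3, the receptor of FLT3 ligand on early progenitors, had 253 with siRNA-Tbet and 248 with siRNAc, a log2 ratio of 0.02. The technical spread at that signal was 0.40 (SD, log2), which leaves out variation between cultures and is not a limit of detection. The middle 95% of probe sets of like signal ran from -0.87 to 0.95 (log2). A difference in FLT3 inside that range would not have stood out.

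CSF1R is the receptor of M-CSF and marks cells of the monocyte lineage. It gave 144 with siRNA-Tbet, just under the floor, and 220 with siRNAc, which makes it at least 1.5-fold lower. Because it exceeded the floor only with siRNAc, the filter fixed its direction. Its ratio was the lowest among the members, at percentile 11.7 among probe sets of like signal and at 1.45 times the technical SD. With siRNA-Tbet held at the floor, CSF1R could show no lower ratio at its mean signal, so the percentile says little. The CSF1R ratio sits on the 1.5-fold threshold and misses it after quantile normalization (log2 ratio -0.58) and with the lowess trend removed (-0.58). Of 4 listed monocyte markers, only LYZ, which encodes lysozyme, was measured, with 684 in siRNA-Tbet cells and 965 in siRNAc cells (log2 ratio -0.50). CD14, CD163 and FCGR1A were below the floor on both arrays, and the part of these markers in the CSF1R value was not tested.

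CSF1R and CSF2RA carried the lowest and the highest ratio, so the 250 bases before 1 start site of each are shown, from RefSeq on GRCh38.p14. Capitals mark GAGGAA, a purine-rich core bound by PU.1, an ETS factor that drives several myeloid receptor genes. Other forms of the PU.1 site were not searched, so lower case does not mark their absence. The CSF1R sequence is chr5:150086555-150086804 on the minus strand, the nearer to the coding region of 2 listed start sites, and the CSF2RA sequence is chrX:1268564-1268813 on the plus strand.
CSF1R: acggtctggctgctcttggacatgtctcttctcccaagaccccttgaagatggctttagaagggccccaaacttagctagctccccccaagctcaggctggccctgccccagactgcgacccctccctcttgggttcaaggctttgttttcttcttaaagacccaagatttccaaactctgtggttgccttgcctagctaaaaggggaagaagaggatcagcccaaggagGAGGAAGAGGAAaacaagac
CSF2RA: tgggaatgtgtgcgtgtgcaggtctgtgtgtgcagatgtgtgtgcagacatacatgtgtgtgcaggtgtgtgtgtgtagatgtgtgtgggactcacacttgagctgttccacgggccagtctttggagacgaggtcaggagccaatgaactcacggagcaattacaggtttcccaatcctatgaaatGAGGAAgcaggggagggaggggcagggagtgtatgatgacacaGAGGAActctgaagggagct
In CSF1R the core stands as an uninterrupted pair, from 20 to 9 bases before the start site. A further copy lies after the start site, outside the bases shown. In CSF2RA the core occurs at 63 to 58 and at 20 to 15 bases before the start site.

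Windows of 300 bases (250 before and 50 after the start) were listed for 7 of the members, 9 windows in all. GAGGAA was searched on both strands and occurred in 5 of the 9 windows, those of CSF1R, CSF2RA, CSF3R, FGFR1OP2 and FLT3, and in 27.86% of all 35094 windows of that length. CSF1R and CSF3R have 2 listed start sites each, and the core was in the window of only 1 of them in either gene. The T-box core TCACACC, likewise searched on both strands, occurred in 0 of the 9 and in 3.45% of all windows. These letters are thus not in these windows, which says nothing of T-bet elsewhere. The windows differed in CpG content. KIT had 38 CpG dinucleotides, FLT3 34 and FGFR1OP2 26, against a median of 14 over all windows. The windows of CSF1R held 4 and 8, those of CSF3R 3 and 9, CSF2RA 6 and EPOR 13, all below that median. The EPOR count was close to it.

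CSF2RA encodes the ligand-binding chain of the GM-CSF receptor and CSF2RB the signalling chain it shares with the receptors of IL-3 and IL-5. All 3 measured probe sets of CSF2RA were higher with siRNA-Tbet, but all 3 carry the suffix _x_at. Of these, 211286_x_at and 211287_x_at exceeded the floor only with siRNA-Tbet, so the filter fixed their direction. Probe set 207085_x_at gave 304 with siRNA-Tbet and 190 with siRNAc, 1.60-fold higher, which is the one member value past 1.5-fold upwards. It stood at 1.70 times the technical SD and at percentile 93.0 among probe sets of like signal, where the middle 95% ran from -1.04 to 0.96 (log2).

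The other probe sets of CSF2RA lay at the edge of the floor. Probe set 211287_x_at gave 165 with siRNA-Tbet and 129 with siRNAc, at least 1.13-fold higher. Probe set 211286_x_at had 159 with siRNA-Tbet and 138 with siRNAc, at least 1.09-fold higher. Probe set 210340_s_at, the only one without that suffix, had 138 with siRNA-Tbet and 110 with siRNAc and was not measured. The 4 probe sets thus all had the larger number on the siRNA-Tbet array, and 3 of them are too dim for more than a bound or for any fold.

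CSF2RB was read by 1 probe set, far above the floor on both arrays. It had 4791 with siRNA-Tbet and 4237 with siRNAc, 13.1% higher (log2 ratio 0.18). That is 1.14 times the technical SD of 0.16 at this signal and percentile 89.2 among probe sets of like signal. IL3RA, the IL-3-binding chain that pairs with CSF2RB, pointed the other way, with 1659 in siRNA-Tbet cells and 1937 in siRNAc cells (log2 ratio -0.22). IL5RA, the IL-5-binding chain, was below the floor on both arrays, with 137 with siRNA-Tbet and 90.1 with siRNAc.

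CSF3R, the G-CSF receptor of the neutrophil lineage, had 2 probe sets of opposite sign. Probe set 1553297_a_at gave 1310 with siRNA-Tbet and 1377 with siRNAc, 4.88% lower. Probe set 203591_s_at had 597 with siRNA-Tbet and 534 with siRNAc, 11.7% higher. Both ratios lay close to 0, at 0.33 and 0.52 times the technical SD.

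EPOR, the erythropoietin receptor of erythroid progenitors, had 5 probe sets of its own, of which 4 were measured. Probe set 396_f_at gave 1212 with siRNA-Tbet and 1379 with siRNAc, 12.1% lower. Probe set 37986_at had 561 with siRNA-Tbet and 623 with siRNAc, 10.0% lower. Both of these lay within 1 technical SD of 0. Probe set 209963_s_at had 379 with siRNA-Tbet and 320 with siRNAc, 18.3% higher, and 209962_at had 238 with siRNA-Tbet and 235 with siRNAc. Probe set 216999_at was below the floor, with 20.3 in siRNA-Tbet cells and 38.0 in siRNAc cells. The 4 measured log2 ratios ran from -0.19 to 0.24 with a median of -0.07.

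**Figure D2:**
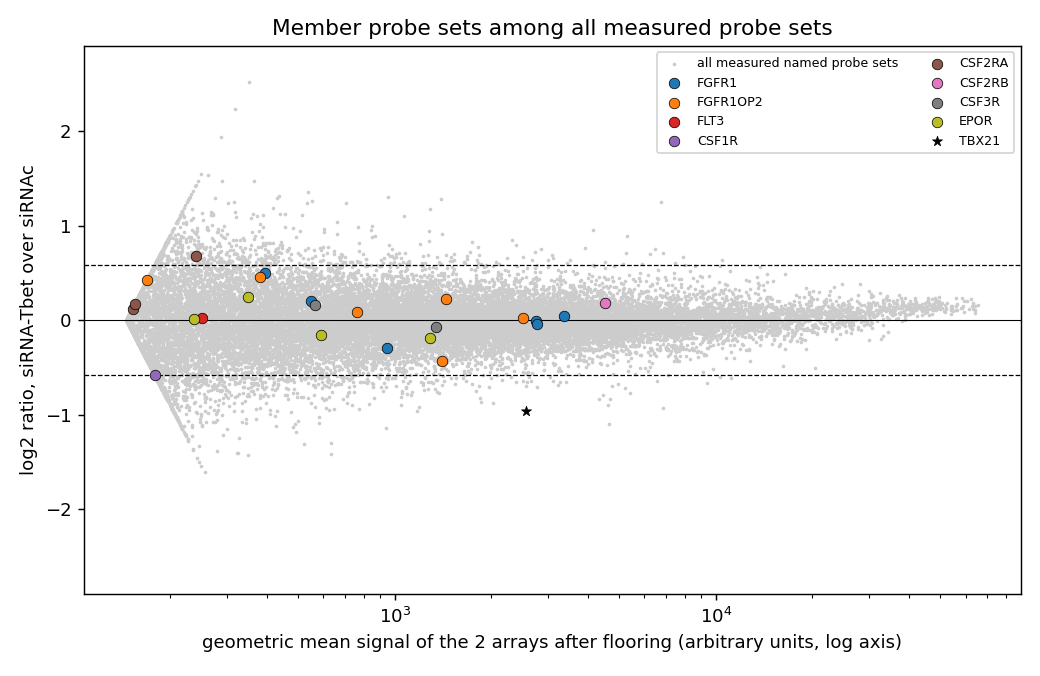
Log2 ratio of siRNA-Tbet over siRNAc (vertical axis) against the geometric mean signal of the arrays after flooring (log axis, arbitrary units) for all measured probe sets with a gene name (grey), the 24 member probe sets (colours) and TBX21 (star). Dashed lines mark 1.5-fold; 1 CSF2RA probe set lies above the upper line and CSF1R on the lower one, both at low signal.

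The plot of ratio against signal shows that the spread of the members narrows with brightness, as it does for all probe sets. The 10 member probe sets with a mean signal above 914, the 75th percentile of the arrays, had log2 ratios from -0.43 to 0.22 with a median of -0.03, and 0 of them passed 1.5-fold. The 14 dimmer measured ones ran from -0.59 to 0.68 with a median of 0.17, and both values past 1.5-fold were among them. The direction of the members' median thus differed between bright and dim probe sets. The dimmer ones include all those whose direction the filter fixed.

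The genes around these receptors were described by 1 probe set a gene, the brightest. Of 12126 measured genes, 1.96% were at least 1.5-fold higher and 2.88% at least 1.5-fold lower with siRNA-Tbet. Of 65 measured genes in the 5 pathway lists, 2 were higher and 1 was lower by that measure, and their median log2 ratio was 0.02 against -0.02 for all measured genes.

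Most ligands were below the floor on both arrays. Of 19 ligands named on the array, 6 were measured, with 1 past 1.5-fold higher, 1 lower and a median log2 ratio of -0.24. FLT3LG, FGF17 and FGF18 exceeded the floor only with siRNAc, so the filter fixed their direction. CSF1, which encodes M-CSF, gave 401 with siRNA-Tbet and 410 with siRNAc. FLT3LG, the ligand of FLT3, had 128 with siRNA-Tbet and 190 with siRNAc, at least 1.30-fold lower. KITLG, the ligand of KIT, had 22.6 with siRNA-Tbet and 42.3 with siRNAc and was not measured, and CSF3 and EPO were not measured either. FGF4, an embryonic fibroblast growth factor, had 452 with siRNA-Tbet and 279 with siRNAc, 1.62-fold higher. Its log2 ratio of 0.69 lay inside the middle 95% of like-signal probe sets (-0.71 to 0.74). FGF6, a fibroblast growth factor of muscle, had 158 with siRNA-Tbet and 347 with siRNAc, 2.19-fold lower, just outside the middle 95% of like-signal probe sets (-1.12 to 1.04). FGF4 and FGF6 rest on 1 dim probe set each.

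Of 13 related receptors 7 were measured, and their log2 ratios had a median of 0.15, with 6 higher, 1 lower and 0 past 1.5-fold in either direction. FGFR3 exceeded the floor only with siRNA-Tbet, which fixed its direction. IL6R, the binding chain for IL-6, had 5596 with siRNA-Tbet and 5142 with siRNAc, and its 2 other measured probe sets were also higher. IL6ST, the shared signalling chain gp130, had 3158 with siRNA-Tbet and 2772 with siRNAc (log2 ratio 0.19), with 4 of 4 other measured probe sets higher. FGFR2, another fibroblast growth factor receptor, had 780 with siRNA-Tbet and 617 with siRNAc, and its 2 others split 1 to 1. All of these lay inside the range of like-signal probe sets.

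On the brightest probe set of each gene, the machinery downstream was close to even. All 24 proximal signalling genes named on the array were measured, 14 higher and 10 lower. Their log2 ratios ran from -0.28 to 0.30 with a median of 0.02, and 0 passed 1.5-fold. GAB2 exceeded the floor only with siRNA-Tbet, which fixed its direction. Other measured probe sets passed 1.5-fold upwards at PTPN11 and at GAB1, where they ran from -0.40 to 0.67 (log2). LYN, a SRC family kinase, had 21149 with siRNA-Tbet and 20907 with siRNAc. PTPN11, the phosphatase SHP2, had 14280 with siRNA-Tbet and 15752 with siRNAc. Its 4 other measured probe sets had log2 ratios from -0.36 to 0.64, with 3 of them on the higher side. STAT3 had 10513 with siRNA-Tbet and 10189 with siRNAc, and PIK3CD, a PI3K catalytic subunit, had 11066 with siRNA-Tbet and 10827 with siRNAc. On their brightest probe sets, the log2 ratios of these 4 genes ran from -0.14 to 0.05.

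Attenuators of receptor signalling were also split, with 9 of 18 measured genes higher and 9 lower and a median log2 ratio of 0.00. SOCS2, a suppressor of cytokine signalling, had 482 with siRNA-Tbet and 305 with siRNAc, 1.58-fold higher on its only measured probe set. SOCS3 had 9345 with siRNA-Tbet and 9018 with siRNAc, with log2 ratios of -0.19 and 0.42 at its 2 other measured probe sets. SOCS1 had 6094 with siRNA-Tbet and 6183 with siRNAc, and both of its other measured probe sets were lower, with log2 ratios of -0.75 and -0.01. PTPN6, the phosphatase SHP1, had 9662 with siRNA-Tbet and 9178 with siRNAc. CBL, a ubiquitin ligase of activated receptor kinases, had 4535 with siRNA-Tbet and 4466 with siRNAc, but its 3 other measured probe sets had log2 ratios from -0.57 to -0.24.

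Other genes known as fusion partners of FGFR1 gave 5 higher and 5 lower of 10 measured on their brightest probe sets. These log2 ratios ran from -0.19 to 0.16, with a median of 0.01 and 0 past 1.5-fold. The 4 other measured probe sets of CUX1 ran from -0.45 to 0.68, with 1 higher and 3 lower. TPR, a nuclear pore protein, had 11141 with siRNA-Tbet and 9983 with siRNAc. SQSTM1, an autophagy receptor, had 10910 with siRNA-Tbet and 9806 with siRNAc. LRRFIP1 had 12612 with siRNA-Tbet and 12699 with siRNAc, and CPSF6, a factor of mRNA 3′ processing, had 11844 with siRNA-Tbet and 11497 with siRNAc. FGFR1OP2 on its brightest probe set (log2 ratio 0.02) lay within the range of these partners.

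**Figure D3:**
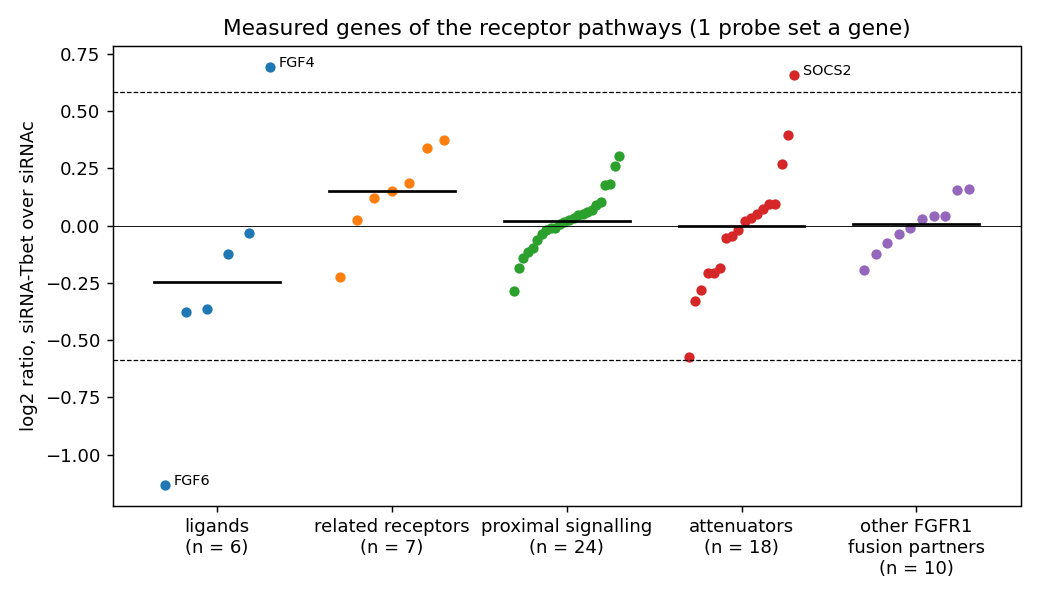
Log2 ratio of siRNA-Tbet over siRNAc for each measured gene of the 5 pathway lists (points, 1 probe set a gene, sorted within a list), with the list's median (bar) and 1.5-fold (dashed lines). FGF4 and SOCS2 lie above the upper line and FGF6 below the lower one, while the 24 proximal signalling genes stay between -0.28 and 0.30.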

How the data were processed

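RNA of 2 KG1 cultures, 1 with siRNA-Tbet and 1 with siRNAc, was read on 1 array each. The deposited values are linear signal intensities that the authors made with MAS5, per the submitters' processing notes; no version is stated there. Both arrays have a trimmed mean of 1000 (2% removed at each end), so no further scaling was applied. The platform annotation named the probe sets, and symbols were updated by Entrez number to RefSeq of GRCh38.p14 (41043 of 41097 probe sets with 1 gene matched). Probe sets with several genes (1801) or no name here (11777) were left out of all counts.

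Signals below the higher of the arrays' medians (146) were raised to it, and ratios were taken as log2 of siRNA-Tbet over siRNAc with pandas 2.3.3. Alternatives were 3 scalings, 4 other floors, other choices of probe set and a 2-fold threshold. With 1 array a group no p-value exists, and the number of arrays limits the precision. For the pathway lists, the brightest probe set by mean log2 signal stood for a gene, those ending in _x_at only where there was no other. All member probe sets were named, and of each pathway list the genes past 1.5-fold and up to 4 of its brightest. The members and lists were chosen with earlier results of these data known, and the PU.1 motif was added after the data were seen. The ratio procedure was tested on simulated arrays. Protein sequences and positions of probes within transcripts were not used here.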

Additional observations from a re-analysis of the deposited data

How the results depend on the processing

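The counts past 1.5-fold rest on the floor and on dim probe sets. The count of higher member probe sets was 1, and flooring at the 25th percentile or not at all gave 5. Flooring at the 75th percentile gave 0, as did the analyses without _x_at and _s_at probe sets, with 1 probe set a gene or at 2-fold. The count of lower ones was 1, and it was 2 with no floor and 0 after quantile normalization, with the lowess trend removed, when floored at the 75th percentile and at 2-fold. Over all measured probe sets the counts of 674 higher and 758 lower became 3877 and 3819 when floored at the 25th percentile, 6641 and 6752 unfloored, and 64 and 73 when floored at the 75th percentile. The 4 probe sets added to the higher side by a lower floor belong to FGFR1, FGFR1OP2 (2) and KIT. Their signals lie below the main floor on both arrays, except that 243619_at of FGFR1OP2 exceeds it with siRNA-Tbet. The cause was not tested. The members' median of 0.07 turned to -0.03 when floored at the 75th percentile and to -0.04 without _x_at and _s_at probe sets, and 0.02 to 0.16 under the other alternatives. CSF1R stayed between -0.61 and -0.58 (log2), CSF2RB between 0.18 and 0.19 and TBX21 between -0.96 and -0.95. FGFR1 ran from -0.04 to 0.06 over 9 alternatives, and the second brightest probe sets of FGFR1OP2 and CSF3R gave 0.22 and 0.16. The ligand list's median of -0.24 was -0.57 with no floor and -0.14 at the 25th percentile, in alternatives chosen for the lists after seeing the data. No paired analysis was possible because each group has 1 array. Signals near the floor limit what can be seen for KIT, FLT3, CSF1R and CSF2RA.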
